A study of Rattus norvegicus with 15 samples.

Results

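The store, pump and channel genes of calcium handling were followed across cells labelled as primary rat brain microvascular endothelial cells (BMECs) and exposed to x-rays. They were taken as the setting in which the store-operated entry genes of the study act. The 10 genes were Itpr1, Itpr2, Itpr3, Atp2a2, Atp2b1, Atp2b4, Atp2c1, Mcu, Trpc1 and Orai1, out of 37367 genes in the expression table. A gene's rows were those carrying its name, plus unnamed assembled transcripts of a locus holding that name alone, and their FPKM (fragments scaled to transcript length and library size) were summed in each library. FPKM is divided by transcript length, so levels can be set side by side between genes. A sum over transcripts of different lengths also depends on how reads were divided among them. Of the 10 genes, 9 had a mean of at least 0.5 FPKM over the 15 libraries and were tested, and Itpr2 was not.

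The cells were grown from cerebral microvessels of Sprague-Dawley littermates aged 2 to 3 weeks, and the labels do not say which animals gave which library. The 5 groups of 3 libraries were unexposed control cells labelled as cultured for 12 h, cells 12 h after 5 Gy, cells 12 h after 20 Gy, cells 24 h after 5 Gy and cells 24 h after 20 Gy. No unexposed culture of 24 h was analysed here, so time after exposure and time in culture cannot be told apart. In bulk libraries, fewer cells of a type and less RNA per cell cannot be told apart either.

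Calcium ions are stored in the endoplasmic reticulum, from which inositol trisphosphate (IP3) receptors, encoded by the Itpr genes, release them. Pumps return calcium to the store or move it out of the cell, the mitochondrial uniporter takes it up, and emptying of the store opens entry channels such as Orai1 in the plasma membrane. In endothelial cells, this cycle is known for its part in the control of permeability and of vessel tone.

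The libraries held 5.44 to 7.49 gigabases of aligned sequence each, as read from the steps between low FPKM values. The labelled cell type was checked against its markers. Of 14 endothelial markers, 12 had a row and 9 of these had a mean below 0.5 FPKM. Tie1 and Emcn were listed at 0 in every library, and Cdh5 and Cldn5 reached at most 0.275 and 0.033 FPKM. The summed endothelial list lay between 4.09 and 9.01 FPKM in all libraries. All 7 fibroblast markers had a mean of at least 0.5 FPKM, and their sum was 4163 to 4531 FPKM in the controls, 2334 to 3982 FPKM at 12 h and 903 to 2178 FPKM at 24 h. The sum of the 7 pericyte markers, of which Rgs5, Abcc9, Kcnj8 and Higd1b were at or near 0, fell over the same groups. It was 152 to 160 FPKM in the controls, 103 to 126 FPKM at 12 h and 49.9 to 87.7 FPKM at 24 h. The sum of 5 astrocyte markers, with Gfap and Aqp4 at or near 0, was 10.7 to 13.2 FPKM in the controls and 19.0 to 32.6 FPKM in the exposed libraries, and that of 5 neuron markers was 60.8 to 74.3 FPKM and 22.1 to 46.0 FPKM. The astrocyte rise lay in Aldh1l1, with group means of 9.52 FPKM in the controls and 20.8 to 24.1 FPKM after exposure, while S100b was lower. The neuron fall lay mainly in Stmn2, at 58.7 FPKM and 18.6 to 34.9 FPKM. Syt1 was higher at 24 h, at 9.84 and 9.18 FPKM against 6.68 FPKM in the controls. The fibroblast and pericyte sums lay below every control library at 12 h and lower still at 24 h. The fibroblast fall was not shared by all 7 markers. Fn1, the largest, had group means of 2387 FPKM in the controls and 1408 and 1111 FPKM at 24 h after 5 and 20 Gy. Pdgfra was at 52.1 FPKM in the controls and at 60.8 and 51.6 FPKM at 24 h. Of the 7, 2 passed as lower than control at 12 h after each dose. At 24 h, 5 passed as lower after 5 Gy and 6 after 20 Gy. The astrocyte and neuron sums differed with exposure, as Trpc1 did. The part of these markers in the results was not tested. The defining markers of endothelial cells do not bear out the label, so the libraries are described by their exposure.

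The promoters of 4 genes are printed because they are the family pairs whose balance differed between the groups, 1 pair of IP3 receptors and 1 pair of plasma membrane pumps. RefSeq promoters of the GRCr8 assembly, from 250 bases before to 50 bases after the start, were at hand for 8 of the 10 genes, and not for Mcu and Trpc1. The deposited table uses another assembly, Rnor_6.0. Capitals mark the GC box, GGGCGG or its reverse complement CCGCCC, and the sequences are read 5′ to 3′ along the strand given.
Itpr3, chr20:5138562-5138861, plus strand: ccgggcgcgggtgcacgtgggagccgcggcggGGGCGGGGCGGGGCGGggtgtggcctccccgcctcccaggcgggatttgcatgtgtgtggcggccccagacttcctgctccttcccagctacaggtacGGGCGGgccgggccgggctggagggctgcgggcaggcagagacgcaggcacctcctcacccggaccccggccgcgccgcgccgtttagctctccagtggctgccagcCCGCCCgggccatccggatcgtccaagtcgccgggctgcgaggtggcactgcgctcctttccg
Itpr1, chr4:142743190-142743489, plus strand: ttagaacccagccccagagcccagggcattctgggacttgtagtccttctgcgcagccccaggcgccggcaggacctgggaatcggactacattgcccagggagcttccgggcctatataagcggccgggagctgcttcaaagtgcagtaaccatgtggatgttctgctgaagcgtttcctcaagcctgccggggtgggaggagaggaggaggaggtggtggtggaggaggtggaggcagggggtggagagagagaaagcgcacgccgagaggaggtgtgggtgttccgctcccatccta
Atp2b1, chr7:35622211-35622510, plus strand: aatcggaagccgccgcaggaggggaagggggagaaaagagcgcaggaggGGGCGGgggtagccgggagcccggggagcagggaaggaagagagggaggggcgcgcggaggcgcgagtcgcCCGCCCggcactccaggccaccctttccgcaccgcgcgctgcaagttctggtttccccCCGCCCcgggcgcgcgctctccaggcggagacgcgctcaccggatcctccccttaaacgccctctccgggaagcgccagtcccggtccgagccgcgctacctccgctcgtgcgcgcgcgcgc
Atp2b4, chr13:47758827-47759126, minus strand: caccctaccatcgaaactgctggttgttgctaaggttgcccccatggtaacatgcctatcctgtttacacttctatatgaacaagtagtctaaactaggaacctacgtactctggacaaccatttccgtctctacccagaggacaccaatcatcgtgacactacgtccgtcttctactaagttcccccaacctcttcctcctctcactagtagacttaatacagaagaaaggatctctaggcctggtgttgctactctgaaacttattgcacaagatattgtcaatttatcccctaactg
The Itpr3 window held 5 GC boxes and the Atp2b1 window held 3, while the Itpr1 and Atp2b4 windows held 0. GC boxes were present in 33.1% of the 33469 promoters of the same length. GC content was 76.0% for Itpr3, 62.0% for Itpr1, 74.3% for Atp2b1 and 44.7% for Atp2b4, against a median of 51.7% over all promoters. A CCAAT box (CCAAT or ATTGG), present in 37.5% of all promoters, was found in the Atp2b4 window and not in the other 3. None of the 4 windows held TATAAA, the AP-1 site TGAGTCA or the cyclic AMP response element TGACGTCA on either strand, which 14.2%, 4.63% and 1.83% of all promoters held. These letters are a description of the windows and not of factor binding. For Atp2b4, the deposited transcripts lie on the plus strand of Rnor_6.0, while the printed window is on the minus strand of GRCr8. Whether this window is the promoter of the measured Atp2b4 transcripts was not tested.

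In unexposed cells, Atp2a2 had the highest level of the 10 genes, at 49.1 ± 3.78 FPKM (SD, n = 3). Mcu followed at 30.9 ± 5.35 FPKM and Atp2c1 at 25.8 ± 1.56 FPKM, and their libraries overlapped. Itpr3 was next at 21.2 ± 3.76 FPKM, below every Atp2c1 library, then Atp2b1 at 14.6 ± 0.262 FPKM and Itpr1 at 10.0 ± 0.597 FPKM, without overlap between these neighbours. Orai1 at 8.07 ± 4.83 FPKM overlapped both Itpr1 above it and Atp2b4 below it. Atp2b4 at 2.46 ± 0.476 FPKM and Trpc1 at 2.07 ± 0.554 FPKM overlapped each other. Atp2a2, Mcu and Atp2c1 kept the first 3 places in all 5 groups. The place of Mcu depended on how reads were divided among transcripts. By aligned bases over the length of the longest transcript, Mcu in the controls was at 21.2 ± 0.811, below every Atp2c1 library at 24.8 ± 1.31 and overlapping Itpr3 at 20.8 ± 3.69. Itpr3 moved from place 4 in the controls to place 7 in the cells 24 h after 5 Gy and place 8 in those 24 h after 20 Gy, where its libraries overlapped those of Trpc1.

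**Figure D1:**
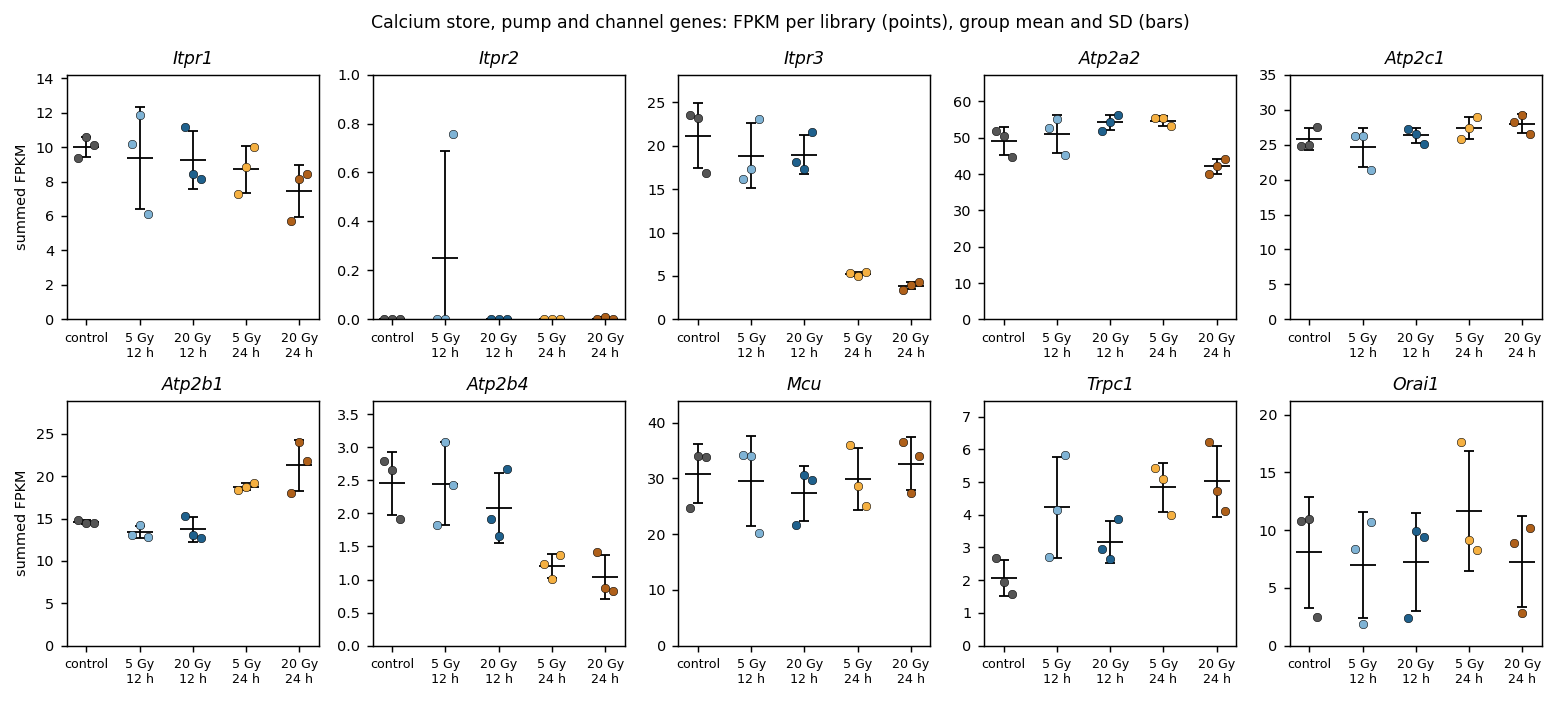
Summed FPKM (vertical axes, each starting at 0) of the 10 genes in the 5 groups, with 1 point per library and bars for the group mean and SD. Itpr3 lies between 3.43 and 5.51 FPKM in the 6 libraries at 24 h and between 16.2 and 23.5 FPKM in the other 9, while Orai1 has 4 libraries in 4 groups that stand below 3 FPKM.

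The release channels gave the largest difference of the 10 genes. Itpr3 encodes the type 3 IP3 receptor. Its level was 23.5, 23.2 and 16.8 FPKM in the controls, 16.2, 17.3 and 23.1 FPKM 12 h after 5 Gy, and 18.1, 17.3 and 21.5 FPKM 12 h after 20 Gy. It was 5.29, 5.04 and 5.51 FPKM 24 h after 5 Gy and 3.43, 3.98 and 4.26 FPKM 24 h after 20 Gy. The control and 12 h libraries overlapped, and every 24 h library lay below all of them. At 12 h, the log2 change of FPKM + 1 from control was -0.16 ± 0.149 (SE) after 5 Gy and -0.14 ± 0.149 after 20 Gy (limma, adjusted p = 0.508 and 0.582). At 24 h, Itpr3 fell by 1.81 ± 0.149 after 5 Gy (limma, adjusted p = 4.9e-07) and by 2.17 ± 0.149 after 20 Gy (limma, adjusted p = 1.12e-07). In mean FPKM it was 4.01-fold lower and 5.45-fold lower than in the controls.

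Between the times, Itpr3 fell by 1.65 on the log2 scale after 5 Gy and by 2.03 after 20 Gy (limma, adjusted p = 1.46e-06 and 2.59e-07). These 4 calls held in every alternative processing tried and without any single library. The 3 libraries 24 h after 20 Gy lay below the 3 libraries 24 h after 5 Gy, but the difference of -0.36 ± 0.149 between the doses did not pass (limma, adjusted p = 0.194). Of all tested genes, 1.22% had a lower log2 change 24 h after 20 Gy than Itpr3. The aligned sequence of Itpr3 was equal to 1410 to 8985 reads of 150 bases per library, so the 24 h values did not rest on few reads.

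Itpr1 encodes the type 1 IP3 receptor. Its level was 9.37, 10.6 and 10.1 FPKM in the controls, 10.2, 11.8 and 6.12 FPKM 12 h after 5 Gy, and 11.2, 8.42 and 8.14 FPKM 12 h after 20 Gy. It was 7.29, 8.82 and 10.0 FPKM 24 h after 5 Gy and 5.71, 8.15 and 8.46 FPKM 24 h after 20 Gy, the only group whose libraries all lay below the controls. The log2 change 24 h after 20 Gy was -0.40 and did not pass (limma, adjusted p = 0.116), with a 95% interval from -0.85 to 0.05. After 5 Gy at 24 h, it was -0.19, with an interval from -0.64 to 0.26. A fall of the size seen in Itpr3 lies outside both intervals.

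Itpr2, the type 2 receptor gene, was listed at 0 in 13 libraries and reached 0.756 FPKM in 1 library 12 h after 5 Gy. These values cover a single transcript, because the locus on chromosome 4 also carries a second gene name and its unnamed transcripts were not assigned. The whole locus was at 5.90, 6.28 and 4.99 FPKM in the controls and 9.51, 9.09 and 9.42 FPKM 24 h after 5 Gy. It was 6.53, 6.27 and 10.3 FPKM 24 h after 20 Gy, which overlapped the controls. Taken as the whole locus, a rule added after the data were seen, it was higher 24 h after 5 Gy, by 0.63 log2 units (limma, adjusted p = 0.00441), while the change of 0.35 after 20 Gy did not pass (limma, adjusted p = 0.0773).

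The makeup of the receptor genes therefore differed at 24 h. Itpr3 held 67.6 ± 4.6% (SD, n = 3) of the summed FPKM of the 3 receptor genes in the controls, 66.0 ± 9.68% 12 h after 5 Gy and 67.2 ± 5.4% 12 h after 20 Gy. It held 37.97 ± 3.56% at 24 h after 5 Gy and 34.6 ± 2.56% after 20 Gy, and Itpr1 held 62.0 ± 3.56% and 65.4 ± 2.53%. The summed level was 31.2 ± 3.71 FPKM in the controls and 13.99 ± 1.46 and 11.3 ± 1.92 FPKM at 24 h. The shares and the summed level leave out the unassigned transcripts of the Itpr2 locus. The whole locus was at 5.72 ± 0.666 FPKM in the controls and at 9.34 ± 0.224 and 7.71 ± 2.28 FPKM at 24 h. Itpr1 was then at 8.71 and 7.44 FPKM and Itpr3 at 5.28 and 3.89 FPKM. Counting the locus would raise the sums and lower the shares of Itpr1 and Itpr3.

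**Figure D2:**
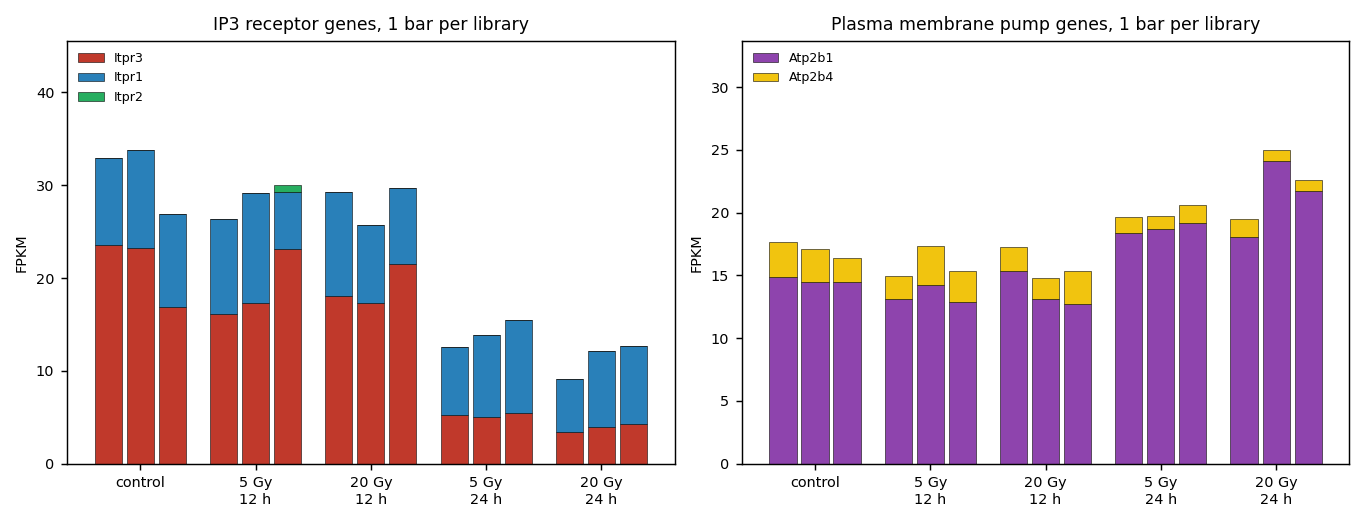
FPKM (vertical axes) of the IP3 receptor genes (left) and of the 2 plasma membrane pump genes (right), stacked in 1 bar per library for the 5 groups. The Itpr3 segment shortens at 24 h while the Itpr1 segment stays between 5.71 and 10.0 FPKM, and the Atp2b4 segment is at most 1.42 FPKM at 24 h. The unassigned transcripts of the Itpr2 locus are left out.

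Among the pumps, Atp2a2 encodes SERCA2, which returns calcium to the endoplasmic reticulum. Its level was 51.9, 50.5 and 44.8 FPKM in the controls, 52.7, 55.3 and 45.2 FPKM 12 h after 5 Gy, and 52.0, 54.5 and 56.2 FPKM 12 h after 20 Gy. It was 55.5, 55.6 and 53.2 FPKM 24 h after 5 Gy and 39.95, 42.3 and 44.2 FPKM 24 h after 20 Gy. At 24 h, the libraries after 5 Gy lay above the controls and those after 20 Gy below them. The log2 change from control was 0.16 after 5 Gy (limma, adjusted p = 0.119) and -0.21 after 20 Gy (limma, adjusted p = 0.0395). The difference between the doses at 24 h was -0.37 ± 0.0824 (limma, adjusted p = 0.0238), and all of these lay under the 1.5-fold limit of a call. With libraries scaled by the median of ratios, the dose difference in Atp2a2 was -0.27 (limma, adjusted p = 0.0819), and with aligned bases per gene -0.36 (limma, adjusted p = 0.0791). With quantile normalization, TPM and the median of ratios, the change from control after 20 Gy was -0.10, -0.13 and -0.07 (limma, adjusted p = 0.334, 0.242 and 0.465). After 5 Gy it was 0.31, 0.31 and 0.20 (limma, adjusted p = 0.00741, 0.0116 and 0.0446). By aligned bases, the change after 20 Gy was -0.13 (limma, adjusted p = 0.332), and the libraries overlapped the controls. The median of all genes there was -0.14.

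Atp2c1 encodes the calcium and manganese pump of the Golgi. Its 15 libraries lay between 21.3 and 29.2 FPKM, and its group means between 24.6 and 28 FPKM. The libraries of every exposed group overlapped the controls. The 95% intervals of the log2 change at 24 h ran from -0.10 to 0.27 after 5 Gy and from -0.07 to 0.30 after 20 Gy, so a 1.5-fold change lay outside them. Its range of group means, 0.18 on the log2 scale, was the smallest of the 9 tested genes.

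Atp2b1 and Atp2b4 encode the plasma membrane calcium pumps PMCA1 and PMCA4, which move calcium out of the cell. Atp2b4 was at 2.80, 2.66 and 1.91 FPKM in the controls and at 1.66 to 3.08 FPKM in the 6 libraries at 12 h. It was 1.24, 1.00 and 1.38 FPKM 24 h after 5 Gy and 1.42, 0.868 and 0.824 FPKM 24 h after 20 Gy. Every 24 h library lay below every control and every 12 h library.

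At 24 h, Atp2b4 fell from control by 0.64 ± 0.174 log2 units after 5 Gy (limma, adjusted p = 0.00649) and by 0.77 ± 0.174 after 20 Gy (limma, adjusted p = 0.00215). In mean FPKM, it was 2.04-fold lower and 2.37-fold lower, since the log2 scale of FPKM + 1 understates changes at low levels. Between the times, it fell by 0.63 after 5 Gy and by 0.60 after 20 Gy (limma, adjusted p = 0.00789 and 0.011). The call 24 h after 5 Gy was lost without control replicate 1 (-0.57, limma, adjusted p = 0.0278), without replicate 2 of that group (-0.57, adjusted p = 0.0278), and under quantile normalization (-0.56, adjusted p = 0.0184), each time on the fold limit. The call for the change of Atp2b4 over time after 20 Gy held in 9 of 15 alternatives. Beside the 2-fold limit, it was lost with quantile normalization (-0.41, limma, adjusted p = 0.077), named transcripts only (-0.39, adjusted p = 0.162), the highest transcript (-0.51), the median of ratios (-0.51) and aligned bases (-0.54). It was also lost without replicate 3 at 12 h (-0.46, limma, adjusted p = 0.0512) and without replicate 2 (-0.54) or 3 (-0.53) at 24 h. The change after 5 Gy was lost with quantile normalization (-0.54), with the 2-fold limit, and without replicate 2 at 12 h (-0.50) or at 24 h (-0.56).

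Atp2b1 went the other way. Its level was 14.9, 14.4 and 14.4 FPKM in the controls, 12.9 to 14.2 FPKM 12 h after 5 Gy and 12.7 to 15.3 FPKM 12 h after 20 Gy. It was 18.4, 18.7 and 19.2 FPKM 24 h after 5 Gy and 18.1, 24.1 and 21.8 FPKM 24 h after 20 Gy, above every other library. Against control, the log2 change at 24 h was 0.34 ± 0.0984 after 5 Gy and 0.51 ± 0.0984 after 20 Gy (limma, adjusted p = 0.00909 and 0.000682), both under the fold limit. After 20 Gy, Atp2b1 met the limit with TPM (0.61, limma, adjusted p = 0.000205), with the median of ratios (0.65, adjusted p = 5.2e-05) and without replicate 1 of that group (0.62, adjusted p = 0.000117). From 12 h to 24 h after 20 Gy, it rose by 0.59 and passed (limma, adjusted p = 0.000236), close to the limit, and missed it without replicate 2 (0.57) or 3 (0.55) at 12 h and without replicate 2 (0.51) or 3 (0.58) at 24 h.

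Part of the Atp2b1 values came from a shorter assembled transcript, MSTRG.21021.6 of 4912 bases, which held 16.4 of 21.8 FPKM in replicate 3 of the cells 24 h after 20 Gy. Aligned bases divided by the length of the longest transcript, a measure added after the data were seen, are not moved by how reads were divided among transcripts. By this measure, the log2 change of Atp2b1 was 0.25 after 5 Gy and 0.17 after 20 Gy at 24 h (limma, adjusted p = 0.0221 and 0.11), and 0.29 from 12 h to 24 h after 20 Gy, which no longer met the fold limit. Atp2b4 held 14.3 ± 2.30% of the summed FPKM of the 2 pump genes in the controls, 6.02 ± 0.832% 24 h after 5 Gy and 4.80 ± 2.14% 24 h after 20 Gy.

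Mcu encodes the pore of the mitochondrial calcium uniporter. Its level was 24.7 to 34.1 FPKM in the controls, 20.2 to 34.3 FPKM in the 6 libraries at 12 h and 25.1 to 36.6 FPKM in the 6 libraries at 24 h, and the groups overlapped in every comparison. The log2 change at 24 h was -0.04 after 5 Gy and 0.08 after 20 Gy (limma, adjusted p = 0.876 and 0.761), with 95% intervals from -0.52 to 0.43 and from -0.39 to 0.56. By aligned bases, the spread within the control group was smaller, at 21.2 ± 0.811 in place of 30.9 ± 5.35 FPKM, and the changes at 24 h were 0.04 and -0.03.

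The entry channels followed. Trpc1 encodes a cation channel of the plasma membrane that has been linked to store-operated entry. Its level was 2.67, 1.94 and 1.59 FPKM in the controls, 2.72, 4.14 and 5.82 FPKM 12 h after 5 Gy and 2.94, 2.66 and 3.88 FPKM 12 h after 20 Gy. It was 5.42, 5.09 and 4.00 FPKM 24 h after 5 Gy and 6.23, 4.72 and 4.10 FPKM 24 h after 20 Gy. Only 1 of the 12 exposed libraries, at 2.66 FPKM, was not above the highest control.

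At 24 h, Trpc1 rose by 0.93 ± 0.218 log2 units after 5 Gy and by 0.97 ± 0.218 after 20 Gy (limma, adjusted p = 0.00249 and 0.00197), or 2.34-fold and 2.43-fold in mean FPKM. Both calls held without any single library. They were lost with the 2-fold limit and with the highest transcript (0.50 and 0.16, limma, adjusted p = 0.367 and 0.798). At 12 h after 5 Gy, the change was 0.74 ± 0.218 and passed (limma, adjusted p = 0.0322), but it was lost without control replicate 2 (0.72, limma, adjusted p = 0.0872), without control replicate 3 (0.62, adjusted p = 0.122), and without replicate 2 (0.73, adjusted p = 0.0797) or replicate 3 (0.53, adjusted p = 0.133) of the exposed group. At 12 h after 20 Gy, the change of 0.44 did not pass (limma, adjusted p = 0.198), and the difference between the doses at 12 h was -0.30 (limma, adjusted p = 0.858). The aligned sequence of Trpc1 was equal to 262 to 1163 reads of 150 bases per library.

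Orai1 encodes a pore subunit of the store-operated channel. Its level was 10.8, 10.9 and 2.50 FPKM in the controls, 8.34, 1.90 and 10.7 FPKM 12 h after 5 Gy and 2.37, 9.92 and 9.40 FPKM 12 h after 20 Gy. It was 17.7, 9.11 and 8.28 FPKM 24 h after 5 Gy and 8.86, 2.80 and 10.1 FPKM 24 h after 20 Gy. In each of 4 groups, 1 library stood at 1.90 to 2.80 FPKM beside 2 at 8.34 or more. The highest value, 17.7 FPKM, included 13.9 FPKM on the assembled transcript MSTRG.6322.4 of 1133 bases, which was at 0 in the other 14 libraries. The annotated transcript ENSRNOT00000001806 was listed at 0 in all 15 libraries, and the level rested on the assembled transcript MSTRG.6322.2. The 95% intervals of the log2 change at 24 h, from -0.83 to 2.05 after 5 Gy and from -1.52 to 1.36 after 20 Gy, held changes of more than 2-fold in either direction after 20 Gy, so such a difference was not detectable in these libraries.

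**Figure D3:**
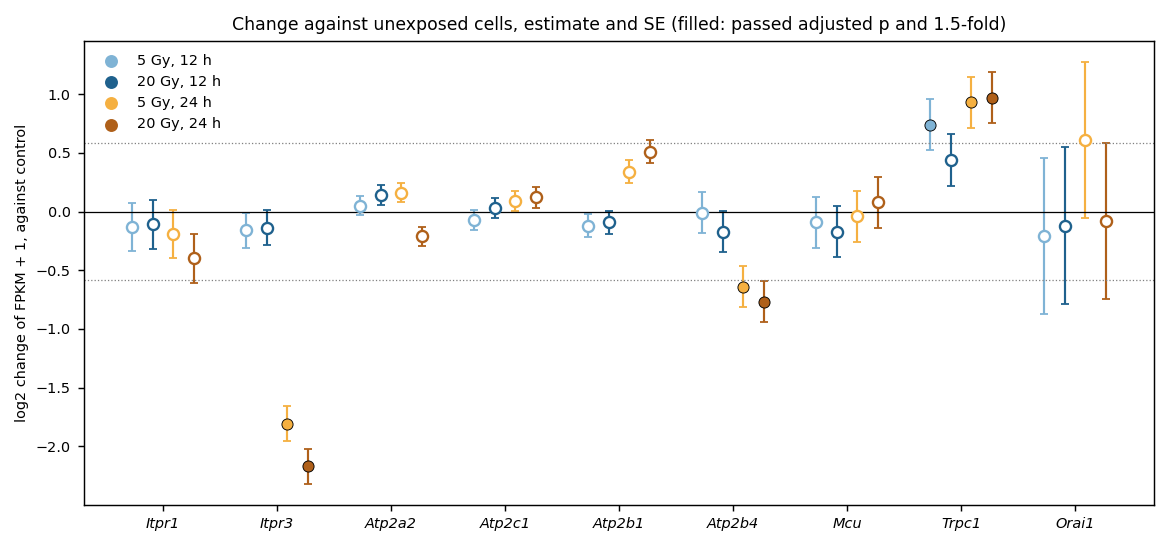
Log2 change of FPKM + 1 from control (vertical axis) of the 9 tested genes, with estimates and SE for the 4 exposed groups, filled where adjusted p was under 0.05 and the change at least 1.5-fold (dotted lines). Itpr3 lies at -1.81 and -2.17 at 24 h, Atp2b4 at -0.64 and -0.77, Trpc1 at 0.93 and 0.97, and the SE of Orai1, 0.666, is the widest.

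Counted together, 1 of the 9 tested genes passed in the cells 12 h after 5 Gy, Trpc1, where 9.94% of all 17895 tested genes passed. At 12 h after 20 Gy, 0 of the 9 passed by limma, 0 had an unadjusted p under 0.05, and 8.54% of all genes passed. At 24 h, Trpc1 passed with a higher level after both doses, beside 20.5% of all genes after 5 Gy and 17% after 20 Gy. Itpr3 and Atp2b4 passed with lower levels, beside 20.8% and 23.3%. These were 33.3% of the 9 genes, beside 41.3% of all genes after 5 Gy and 40.3% after 20 Gy, so the genes were not called more often than genes at large. The 2 comparisons share the control libraries.

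From 12 h to 24 h, Itpr3 and Atp2b4 passed after 5 Gy, 2 of 9 beside 36.4% of all genes, and Itpr3, Atp2b4 and Atp2b1 after 20 Gy, 3 of 9 beside 36.3%. Between the doses, 0 of 9 passed at 12 h, where 0.123% of all genes passed, and 0 of 9 at 24 h, where 2.42% passed. At an unadjusted p under 0.05, the numbers were 0 at 12 h and 2 at 24 h, Itpr3 and Atp2a2. The change over time differed between the doses for 0 of 9 genes, beside 0.52% of all genes, with Atp2a2 alone at an unadjusted p under 0.05. The median log2 change of the 9 genes was 0.09 at 24 h after 5 Gy and -0.08 after 20 Gy, against -0.05 and -0.14 for all genes. Because the median of all genes was itself at -0.14 and, from 12 h to 24 h after 20 Gy, at -0.15, small negative changes there are near that of the typical gene.

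With both doses pooled, the 6 libraries at 24 h were compared with the 6 at 12 h by a two-sided exact permutation test, without adjustment over the 20 pooled tests. The exact p was 0.00216, the smallest the design allows, for Itpr3, Atp2b1 and Atp2b4, whose 24 h libraries did not overlap the 12 h libraries. By aligned bases, the times overlapped for Atp2b1, with the lowest library at 24 h at 14.2 and the highest at 12 h at 14.5. For Atp2c1, with means of 27.7 and 25.5 FPKM, the exact p was 0.039. The 12 exposed libraries differed from the 3 controls for Trpc1, at 4.31 against 2.07 FPKM (exact permutation p = 0.00879). In single comparisons of 3 with 3 libraries, the smallest exact p is 0.1.

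The 10 genes had 47 transcripts in the table, of which 28 were tested. At 24 h, 4 transcripts passed after 5 Gy and 5 after 20 Gy, where 24.1% and 24.2% of all 41932 tested transcripts passed. The annotated Itpr3 transcript ENSRNOT00000090925 fell by 2.24 after 5 Gy and by 3.71 after 20 Gy (limma, adjusted p = 0.0331 and 0.00197). The assembled Itpr3 transcript MSTRG.13873.1 went the other way, from 0.486 ± 0.346 FPKM in the controls to 1.90 ± 2.54 and 2.89 ± 0.816 FPKM. The Atp2b4 transcript ENSRNOT00000046273 fell by 0.97 and by 0.83 (limma, adjusted p = 0.00314 and 0.00769).

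Reads were divided among the transcripts of a gene unequally between replicates. In the controls, the Atp2a2 transcript ENSRNOT00000024347 was at 8.81, 47.1 and 41.8 FPKM, while ENSRNOT00000001738 was at 43.1, 1.87 and 1.76 FPKM. Replicates of at least 1 group differed in their leading transcript for 9 of the 10 genes, and Itpr1 and Mcu did so in all 5 groups. A call on a single transcript therefore rests on this division more than a call on the sum.

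Trpc1 showed a different makeup. Its assembled transcript MSTRG.22951.3 led in the 3 controls, with 78.0 ± 3.47% of the gene's FPKM, and held 25.7 ± 21.6% 12 h after 5 Gy and 4.80 ± 8.32% 12 h after 20 Gy. At 24 h, it held 56.7 ± 16.3% after 5 Gy and 39.7 ± 22.1% after 20 Gy, nearer to the controls than at 12 h. The annotated transcript ENSRNOT00000079965 rose by 1.61 and by 1.63 at 12 h (limma, adjusted p = 0.0115 and 0.0123). It was the only one of the 28 transcripts that passed at either dose at 12 h, where 4.33% of all transcripts passed after 5 Gy and 3.7% after 20 Gy. At 24 h after 5 Gy, ENSRNOT00000089833 rose by 1.10 (limma, adjusted p = 0.00912).

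**Figure D4:**
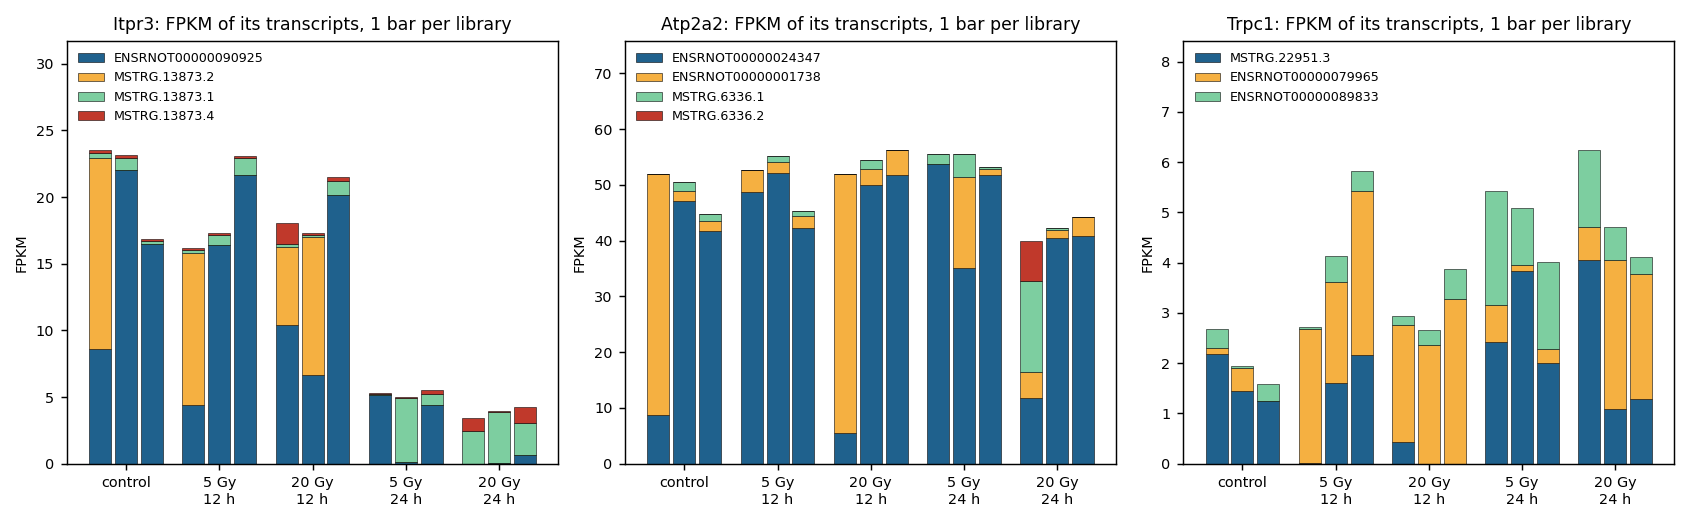
FPKM (vertical axes) of the transcripts of Itpr3, Atp2a2 and Trpc1, stacked in 1 bar per library for the 5 groups. The Atp2a2 bars have similar heights while the leading transcript changes between replicates, and the Itpr3 bars are short in all 6 libraries at 24 h.

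Another 84 genes of calcium handling were set in 7 lists for comparison, and 60 of them could be tested. At 12 h, 4 passed after 5 Gy and 2 after 20 Gy, that is 6.67% and 3.33%, beside 9.94% and 8.54% of all genes. At 24 h, 28 passed after each dose, 46.7%, beside 41.3% of all genes after 5 Gy and 40.3% after 20 Gy, with 14 higher and 14 lower after 5 Gy and 12 higher and 16 lower after 20 Gy. Their median log2 changes of 0.04 and -0.07 lay beside -0.05 and -0.14 for all genes. The counts of the single lists that follow, of 4 to 12 tested genes each, are to be read against the same 41.3% and 40.3%, and nothing particular to a list was shown.

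Among the partners of store-operated entry, 3 of 6 passed at 24 h after 5 Gy and 4 of 6 after 20 Gy. Orai2, a further pore subunit, rose from 3.27 ± 0.115 to 5.97 ± 0.163 and 6.26 ± 0.705 FPKM. It had passed already at 12 h, at 5.58 ± 0.651 and 5.64 ± 0.706 FPKM (log2 changes of 0.62 and 0.63, limma, adjusted p = 0.00136 and 0.00143). From 12 h to 24 h, Orai2 changed by 0.09 and by 0.13 and did not pass (limma, adjusted p = 0.508 and 0.314). At 24 h, the store sensor Stim2 rose by 0.91 and by 0.75 on the log2 scale. Orai3 fell by 1.00 and by 1.08, and the sensor Stim1 passed after 20 Gy alone, at -0.61 (limma, adjusted p = 0.0205), with -0.39 after 5 Gy (limma, adjusted p = 0.112). Of 6 tested store genes of the endoplasmic reticulum, Pln, whose product phospholamban restrains SERCA pumps, rose from 0.284 ± 0.0769 FPKM to 2.17 ± 0.336 FPKM 12 h after 5 Gy and 3.84 ± 0.134 FPKM 12 h after 20 Gy. At 24 h, it passed after 20 Gy (0.87, limma, adjusted p = 1.33e-05), and was at 0.32 after 5 Gy, under the fold limit.

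Of 12 tested genes of IP3 production, removal and receptor binding, 8 passed at 24 h after 5 Gy, 4 in each direction, and 7 after 20 Gy, 2 higher and 5 lower. Itpkc, a kinase that phosphorylates IP3, rose from 3.06 ± 0.312 to 26.5 ± 1.30 and 23.2 ± 2.83 FPKM. Plcb3, a phospholipase that produces IP3, fell from 17.0 ± 1.41 to 6.43 ± 0.395 and 3.93 ± 0.777 FPKM. Bok, a Bcl-2 family protein that binds IP3 receptors, fell from 20.2 ± 3.64 to 5.19 ± 0.314 and 5.04 ± 1.44 FPKM.

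Of the other 4 tested export genes, 1 passed after 5 Gy and 2 after 20 Gy at 24 h, all lower. Slc8a2, a sodium-calcium exchanger, fell by 0.78 and by 0.71. Its levels were low, at 1.44 ± 0.208 FPKM in the controls and 0.417 ± 0.0263 and 0.493 ± 0.0165 FPKM at 24 h. Nptn, whose product neuroplastin is a partner subunit of the plasma membrane pumps, fell by 0.60 after 20 Gy (limma, adjusted p = 0.000495) and was at -0.54 after 5 Gy, under the fold limit.

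Beside Mcu, 11 mitochondrial calcium genes were tested, and at 24 h 7 passed after 5 Gy and 4 after 20 Gy. Mcub, which encodes a dominant-negative subunit of the uniporter, rose from 0.886 ± 0.338 to 10.2 ± 1.25 and 10.3 ± 3.96 FPKM (log2 changes of 2.58 and 2.54, limma, adjusted p = 2.1e-06 and 2.59e-06). Smdt1, the essential regulator of the uniporter pore, fell by 0.76 after 5 Gy and was at -0.41 after 20 Gy, under the fold limit. Slc8b1, the mitochondrial sodium-calcium exchanger, fell by 0.88 and by 0.77.

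Of 9 tested cation channels of the plasma membrane and lysosome, 3 passed at 24 h after each dose. Tpcn1 of endolysosomes fell by 1.22 and by 1.59, the mechanosensitive channel Piezo1 fell by 1.40 and by 1.52, and Cacna1c, the L-type channel subunit, rose by 0.82 and by 1.00. Of 12 tested genes of calmodulin, calcineurin and NFAT, 6 and 7 passed at 24 h. Ppp3ca, a catalytic subunit of calcineurin, rose by 1.5 and by 1.45, and Nfatc3, a calcineurin-dependent transcription factor, by 1.37 and by 1.51. Ppp3cc, another catalytic subunit, fell by 2.09 ± 0.685 (SE) after 20 Gy (limma, adjusted p = 0.0186) and was at 0.03 after 5 Gy. Its replicates differed widely in the other exposed groups, as in the 7.49 ± 8.35 and 12.2 ± 7.97 FPKM (SD) at 12 h. The difference between the doses at 24 h, -2.13, did not pass (limma, adjusted p = 0.102). The change of -1.3 from 12 h to 24 h after 20 Gy did not pass either (limma, adjusted p = 0.127). An effect of 20 Gy alone was therefore not shown.

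**Figure D5:**
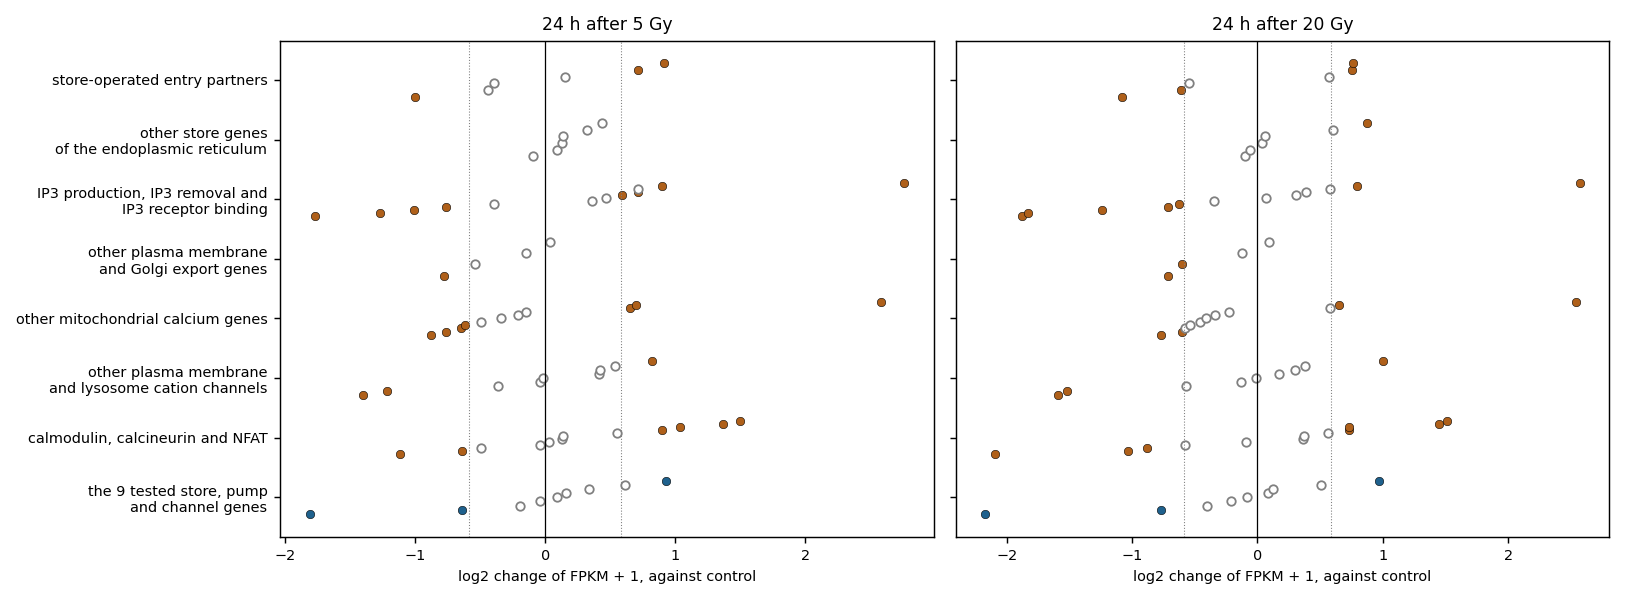
Log2 change of FPKM + 1 from control (horizontal axes) at 24 h after 5 Gy (left) and 20 Gy (right), with 1 point per tested gene of the 7 lists and of the 9 tested store, pump and channel genes, filled where the call was made and with dotted lines at 1.5-fold. Itpkc at 2.76 and 2.57 and Mcub at 2.58 and 2.54 lie farthest to the right, and Itpr3 at -1.81 and -2.17 farthest to the left of its row.

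The genes with the most similar pattern were sought for the 3 tested genes whose group means ranged widest. Likeness was the root mean square difference of log2 values, centred on the control mean, over the 12 exposed libraries and among 8898 named genes with a mean of at least 5 FPKM. For Itpr3, they were Fahd1 at 0.138, Dgcr8 at 0.199 and Akt1 at 0.204. Fahd1 was at 10.3 ± 0.539 FPKM in the controls and at 2.29 ± 0.335 and 1.71 ± 0.733 FPKM at 24 h. For Trpc1, they were AABR07028902.1 at 0.180, RGD1562608 at 0.181 and Rbm5 at 0.186. For Orai1, the nearest, Zfp523 and Gpatch8 at 0.574 and Mcrip2 at 0.578, were farther away.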

How the data were processed

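Transcript levels of 15 poly-A RNA sequencing libraries were used. The authors trimmed reads with Trimmomatic, mapped them with HISAT2 2.0.13 to Rnor_6.0, converted them with samtools 1.9, assembled transcripts with StringTie 1.3.5 and deposited 1 table of FPKM for 85322 transcripts in 40272 loci. FPKM were summed per gene, which left 4738 transcripts of loci with several names unassigned. Gene sums were used without rescaling.

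Log2(FPKM + 1) values of the 17895 genes with a mean of at least 0.5 FPKM were fitted in R 4.3.3 with limma 3.58.1, with a mean for each group (10 residual degrees of freedom) and a trended variance prior. A call needed a two-sided Benjamini-Hochberg adjusted p under 0.05 over all genes tested and a 1.5-fold change. Single genes were also tested by exact permutation (scipy 1.17.1). FPKM are not counts, so a count model was not used. The fit was tested on simulated data. The members and lists were chosen with earlier results of these data known.

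Named genes were the 10 members, their transcripts, and, in each list of 7, up to 3 genes with the largest change among those called against control, plus Orai2, Stim1 and Stim2. Replicates are biological according to the paper, and the replicate numbers did not pair the libraries. Depth was read from low values of single-exon transcripts under 400 bases, of which 46.8% to 65.3% per library were whole multiples of 1 step within 0.05, against at most 9.69% at the median other step. Further marker lists were smooth muscle (summed level 23.0 to 47.3 FPKM), oligodendrocyte (0.254 to 1.22 FPKM) and microglia (0.008 to 0.301 FPKM). Alternatives covered the pseudocount, filter, scaling, groups fitted, variance prior, replicate block, threshold, transcripts counted and each library left out, and 3 more were added after the data were seen.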

Additional observations from a re-analysis of the deposited data

Results flagged for a closer look

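Atp2a2 differed between the doses at 24 h. Its level was 54.7 ± 1.38 FPKM (SD, n = 3) after 5 Gy, with all 3 libraries above the controls at 49.1 ± 3.78 FPKM, and 42.1 ± 2.11 FPKM after 20 Gy, with all 3 below. The difference was -0.37 on the log2 scale (limma, adjusted p = 0.0238) and lay under the 1.5-fold limit. Its adjusted p (limma) ranged from 0.0159 to 0.755 over the other settings and from 0.0134 to 0.0834 without single libraries. By aligned bases, the libraries after 20 Gy overlapped the controls.

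The transcripts of the Itpr2 locus that the sum left out carried a signal. The whole locus was at 5.72 ± 0.666 FPKM in the controls and at 9.34 ± 0.224 FPKM 24 h after 5 Gy, above every control library. Its longest transcript, MSTRG.17539.1, was at 3.98 ± 0.555 and 3.48 ± 2.16 FPKM in these groups, so the higher level lay in shorter transcripts.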

How the results depend on the processing

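Of 2412 values of single genes under the alternatives, 37 lost a call, 17 gained one and 2 changed sign on a call, while 122 others changed sign without passing in either setting. The sign changes both came from using only the transcript with the highest mean: Atp2b1 from 12 h to 24 h after 20 Gy (-0.37) and Trpc1 12 h after 5 Gy (-0.35). The cause was not tested.

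At 12 h after 5 Gy, the number of genes called was 0 with a 2-fold limit, with only the 2 groups fitted, with the replicate block and with the highest transcript, and 0 to 1 without single libraries. At 12 h after 20 Gy, it was 1 with named transcripts only. With a 2-fold limit, 1 gene, Itpr3, was called in each comparison at 24 h with control and between times, by construction. With the adjusted p alone, 5 genes were called 24 h after 20 Gy and 1 between the doses at 24 h. From 12 h to 24 h after 5 Gy, 1 was called under quantile normalization and 1 to 2 without single libraries, the lower number without replicate 2 of either group. From 12 h to 24 h after 20 Gy, 1 was called with aligned bases and 1 to 3 without single libraries, the lower number without replicate 2 of the 24 h group.

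Replicate numbers did not pair the libraries (r of deviations between same-numbered libraries -0.177 to 0.232, median 0.00875, n = 30 pairs). With the replicate block, Trpc1 12 h after 5 Gy was at an adjusted p of 0.0543 (limma), and no other call changed. The counts over all genes fell by more than 1.5 times in every comparison with a 2-fold limit (588 in place of 1779 at 12 h after 5 Gy, 3444 in place of 7219 at 24 h after 20 Gy), and rose so in 5 comparisons with the adjusted p alone (3385 at 12 h after 5 Gy). They also moved with TPM (730 in place of 433 between the doses at 24 h) and with only the groups compared (2 in place of 22 between the doses at 12 h, 37 at 24 h, and 47 in place of 93 for the change over time between doses). With the highest transcript and with named transcripts only, the counts between the doses were 11 and 6 at 12 h and 276 and 246 at 24 h, and named transcripts gave 58 for the change over time. Between the doses at 12 h, the count was 12 with a pseudocount of 0.1, 48 with quantile normalization and 5 to 38 without single libraries, and the change over time between doses gave 44 to 229, the highest without replicate 3 at 24 h after 20 Gy. From 12 h to 24 h after 20 Gy, 2526 genes were higher and 3963 lower, against 3039 and 3067 with quantile normalization and 3299 and 3143 with the median of ratios. Between the doses at 24 h, 171 were higher and 262 lower, against 199 and 151, against 218 and 176, and against 203 and 527 with TPM. The change over time between doses had 44 higher and 49 lower, against 51 and 31, 60 and 35, and 38 and 87 in that order. With the median of ratios, the median of all genes from 12 h to 24 h after 20 Gy moved from -0.15 to -0.02, and Trpc1 passed there at 0.67, as it did with quantile normalization at 0.64. The Trpc1 calls at 24 h were lost with the highest transcript (0.50 and 0.16). Low levels of Atp2b4, equal to 232 to 826 reads, and the 3 libraries per group limit these results.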
